A study of Mus musculus with 17 samples.

Results

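AB12 is a murine mesothelioma cell line that forms tumors in the peritoneum of BALB/c mice. The comparison described here sets 3 tumors taken on day 14 from mice treated with anti CTLA-4 (treated d14) against 5 tumors taken on day 10 from untreated mice (untreated d10), that is 8 of the 17 RNA-seq libraries of the series. The libraries were chosen by their labels, and 14500 protein-coding genes had enough counts to be tested. The mice were female and 8 weeks old, all had received AB12 cells into the peritoneum, and the treated mice had been given 200 µg per injection of the blocking antibody, clone 9D9, into the peritoneum. For a tumor taken on day 14 the study describes injections on days 6 and 10, while the labels give a general schedule over a longer time and do not state how many injections had been given by day 14. Untreated mice are not said to have received a control antibody. Because day and treatment differ together between both groups, their parts in any difference cannot be told apart, and the levels of untreated d14 tumors (n = 3) and of treated d10 tumors (n = 3) are given beside the results for that reason. The study set treated d14 tumors against untreated d10 and d14 tumors to learn what early treatment does to the response against the tumor, and the question here is which genes differ from untreated d10.

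CTLA-4 is an inhibitory receptor that T cells put on their surface after activation and that competes with the costimulatory receptor CD28 for the same ligands. Antibodies that block it release T cells from this restraint and can also deplete regulatory T cells, which carry much CTLA-4. CD8 T cells and NK cells kill target cells with perforin (Prf1) and granzymes, while receptors such as PD-1 (Pdcd1), LAG-3 and TIM-3 (Havcr2) mark cells that have been stimulated for long. In RNA from a whole tumor, fewer cells of a type and less RNA per cell cannot be told apart.

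Total counts were 51159050 to 88029944 in the untreated d10 libraries, 85449173 to 96759833 in the treated d14 libraries and 72413343 to 96646208 in the untreated d14 libraries. Levels are given per 1000000 counts of a library (CPM), scaled by trimmed mean of M values (TMM) over all libraries. Differences are log2 fold changes, treated d14 minus untreated, with their standard error (SE). A gene was called when edgeR's quasi-likelihood test gave a Benjamini-Hochberg adjusted p below 0.05 and the fold change exceeded 2. Some features of the libraries bear on what follows. Untreated d10 replicates 4 and 5 stood apart from replicates 1 to 3, with 567 of 14247 protein-coding genes called between these libraries of the same label. Treated d14 replicates 1 and 3 held RNA of the exocrine pancreas, described at the end. The median difference also moved with exon length, from -0.51 in genes of up to 1000 bases to 0.21 in genes of over 8000 bases. List medians with an offset for exon length are given beside some of the groups.

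Treated d14 tumors differed from untreated d10 tumors in 703 protein-coding genes. Of the 14500 tested, 470 were higher (3.24%) and 233 were lower (1.61%) in treated d14. Over all 18057 genes in the fit, noncoding genes included, 1414 were called (7.83%). Among the called protein-coding genes, the libraries of both groups did not overlap in 436 of the 470 higher and 205 of the 233 lower. The calls rest on the same libraries, so this describes the called genes and adds no support to them. How many of all tested genes did not overlap is not given here. By adjusted p alone, with no minimum fold, 4157 protein-coding genes passed, 1654 higher (11.4%) and 2503 lower (17.3%). Low expression was common among the calls, since 241 of the called genes had a mean below 1 CPM in both groups. Against d10 replicates 1 to 3 alone 1087 genes were called (624 higher and 463 lower), and against replicates 4 and 5 alone 1138 were (852 higher and 286 lower). In the main fit and both of these, 371 genes were called, 292 of them higher and 79 lower by their sign in the main fit. Without treated d14 replicate 2 the main count of 703 fell to 364, without replicate 1 to 436. The median difference over the tested protein-coding genes was -0.065, and it became 0.081 when libraries were scaled by their total counts without TMM. Under that scaling 714 genes were higher and 131 lower, so the share of calls that were higher rose from 66.9% to 84.5%, and it was 77.0% when only protein-coding genes entered the fit. A difference of a gene or list is best read against the median of its fit.

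The genes that define T cells showed no called difference between treated d14 and untreated d10 tumors. None of the 20 tested genes of T cell receptor and proximal signaling was called, 2 were higher and none was lower by adjusted p alone, and their median difference was 0.03. Cd3e, a signaling chain of the T cell receptor complex, was at 55.7, 57.1, 53.6, 65.2 and 58.7 CPM in untreated d10 replicates 1 to 5 and at 55.7, 54.1 and 55.2 CPM in treated d14 replicates 1 to 3. The treated libraries thus lay inside the range of the untreated ones, and the log2 fold change was -0.07 with a 95% interval from -0.26 to 0.12. In the untreated d14 tumors Cd3e was at 30.2, 21.3 and 35.8 CPM, below every library of both other groups. For Cd3d, another chain of the complex, the difference was -0.25 (interval -0.67 to 0.18). For Cd6, a surface receptor of T cells, it was 0.47 (0.04 to 0.91, adjusted p = 0.0962). Cd8a, the alpha chain of the CD8 co-receptor, was at 55.5, 69.0, 60.7, 80.8 and 71.6 CPM in untreated d10 and at 75.8, 79.7 and 68.7 CPM in treated d14, a difference of 0.15 (-0.12 to 0.42). Cd8b1, the beta chain, was at 45.4 ± 8.56 CPM (SD, n = 5) and 34.6 ± 3.28 CPM (SD, n = 3), a difference of -0.38 (-0.71 to -0.05, adjusted p = 0.0783). These intervals show how large a difference the 8 libraries leave room for, and they do not show equality.

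**Figure D1:**
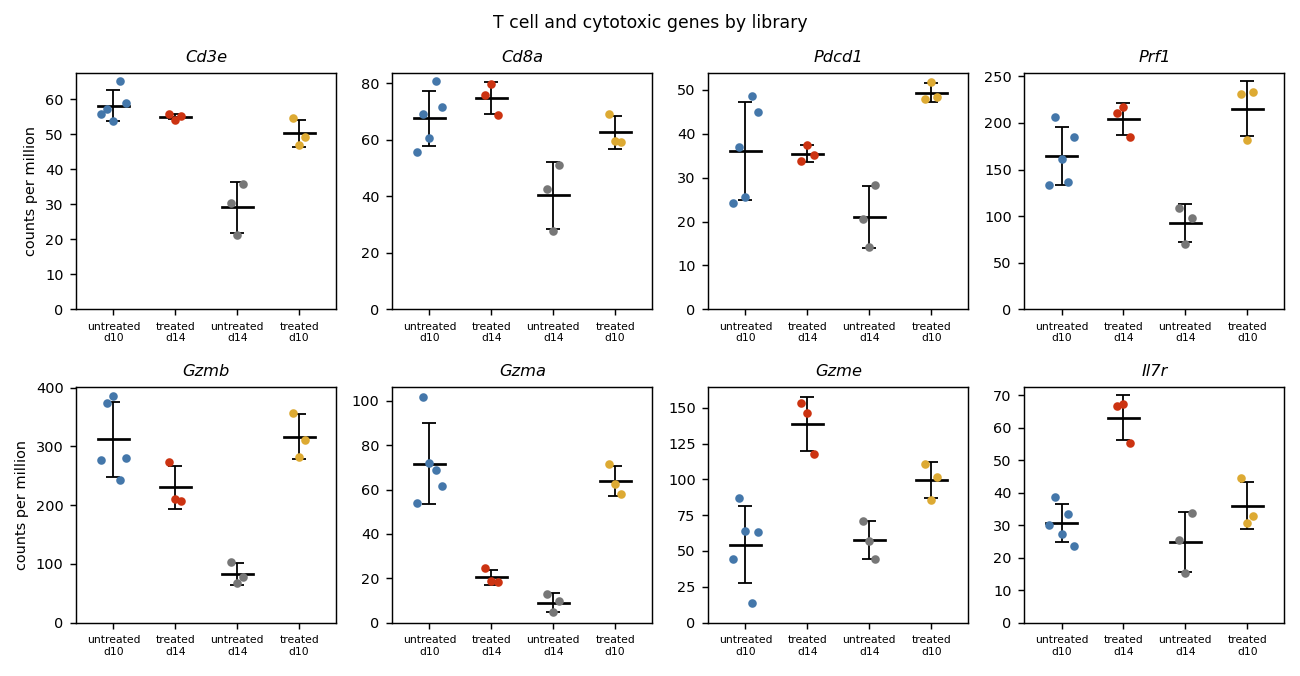
Normalized CPM of 8 T cell and cytotoxic genes (y axis, from 0) in each library of 4 groups, with the mean as a bar and the SD as whiskers. Cd3e, Cd8a and Pdcd1 of treated d14 lie within or near the untreated d10 range, Gzma lies below it, and Gzme and Il7r lie above it.

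Perforin, granzyme B and the inhibitory receptors showed no called difference from untreated d10, with Havcr2 the furthest above it. Prf1 was at 133, 206, 161, 137 and 185 CPM in untreated d10 and at 211, 217 and 185 CPM in treated d14, so the groups overlapped, and the log2 fold change was 0.32 (-0.02 to 0.66, adjusted p = 0.145). Gzmb was at 277, 374, 386, 242 and 281 CPM against 273, 210 and 207 CPM, a difference of -0.44 (-0.84 to -0.03, adjusted p = 0.099). Pdcd1 was at 24.1, 37.1, 25.5, 48.7 and 44.9 CPM in untreated d10, with replicates 4 and 5 highest, and at 33.8, 37.5 and 35.1 CPM in treated d14. The difference for Pdcd1 was -0.02 (-0.51 to 0.48), and for Lag3 it was -0.14 (-0.66 to 0.37). The sign of both depended on the scaling. Havcr2 was at 42.8, 51.8, 56.9, 34.3 and 38.6 CPM in untreated d10 and at 81.7, 83.7 and 72.9 CPM in treated d14, with no overlap. Its difference of 0.83 (0.46 to 1.20, adjusted p = 0.00743) stayed under the fold threshold. The transcript of the antibody's target, Ctla4, had at most 0.0312 CPM in any untreated d10 library and at most 0.0211 CPM in any treated d14 library. It was therefore not tested, and its level cannot be compared. No library of the series had more than 2 counts on Ctla4, while Foxp3, a gene of regulatory T cells, had 98 to 301 in the libraries compared. Why so few reads were counted on Ctla4 was not tested. Against untreated d14, on the other hand, Prf1 differed by 1.21 (adjusted p = 0.00499), Gzmb by 1.54 (adjusted p = 0.00436) and Cd8b1 by 1.09 (adjusted p = 0.0134), all called. The Cd8b1 call ended without untreated d14 replicate 2. Pdcd1 (0.82, adjusted p = 0.0261), Lag3 (0.99, adjusted p = 0.0431) and Havcr2 (0.55, adjusted p = 0.0187) were above untreated d14 under the fold threshold. Cd6 was called there at 1.45, while Cd3d, Cd3e and Cd8a, at 0.98, 0.98 and 0.95, were not.

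Granzymes did not share a direction against untreated d10. Of the 15 tested genes of cytotoxic effectors, Gzme was called higher and Gzma lower, and the median was 0.10 (0.37 with the length offset). Gzma, which encodes a trypsin-like granzyme abundant in NK cells and CD8 T cells (chr13:113093825-113100981, GRCm38), was at 54.0, 102, 72.1, 68.8 and 61.8 CPM in untreated d10 and at 24.4, 18.6 and 18.2 CPM in treated d14. Every treated library lay below every untreated one, and the log2 fold change was -1.81 (SE 0.21, adjusted p = 0.00177), a 3.50-fold lower level. Treated d14 was nevertheless above untreated d14, where Gzma was at 12.8, 4.64 and 9.53 CPM, by 1.24 (adjusted p = 0.0249). That call ended without treated replicate 1 or 2 or untreated d14 replicate 2. Treated d10 tumors, at 71.5, 62.5 and 58.2 CPM, were within the untreated d10 range. Gzme, of the granzyme cluster on chromosome 14 (chr14:56117626-56120625), went the other way, from 44.6, 86.7, 64.0, 13.9 and 63.3 CPM to 153, 146 and 118 CPM, with no overlap. Its difference was 1.35 (SE 0.43, adjusted p = 0.0423), and it was no longer called in 5 of 8 fits with 1 library left out (treated replicates 1, 2 and 3, untreated replicates 1 and 5), with values of 1.28 to 1.46 and adjusted p up to 0.128. Its neighbours Gzmd, Gzmf and Gzmg had differences of 1.15, 1.19 and 1.25 with adjusted p of 0.101, 0.0966 and 0.123. These genes have very similar sequences, so how uniquely mapped reads divide between them is uncertain. Untreated d10 replicate 4 was the lowest library for each of the 4 genes. Gzmk, a granzyme of effector memory T cells, differed by -0.53 (adjusted p = 0.0687), and Ifng, the interferon made by T and NK cells, by -0.40 (adjusted p = 0.351).

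Among the chemokines that activated lymphocytes secrete, Xcl1 and Ccl1 were lower, while the levels of Ccl3, Ccl4 and Ccl5 showed no called difference. Xcl1, a chemokine of CD8 T cells and NK cells that draws cross-presenting dendritic cells, was at 10.6, 7.46, 10.8, 5.10 and 8.29 CPM in untreated d10 and at 1.33, 1.90 and 1.53 CPM in treated d14. The difference was -2.41 (SE 0.29, adjusted p = 0.0018), a 5.32-fold lower level, and untreated d14 libraries, at 3.12, 3.20 and 2.51 CPM, lay between both groups. Ccl1, which is made by activated T cells and binds CCR8, fell by 1.40 on the log2 scale (adjusted p = 0.00521), from 5.02, 5.14, 3.80, 2.61 and 3.85 CPM to 1.34, 1.65 and 1.63 CPM. Ccl12, a monocyte attractant, differed by -1.11 (adjusted p = 0.00226), and the call ended without treated replicate 2, at -0.98. These were the 3 called members among 16 tested CC chemokines, all lower, with a list median of -0.57. These are short genes, with a median exon length of 914 bases, and with the length offset the list median was -0.21 and Ccl12 was no longer called. Ccl3 and Ccl4, which T cells, NK cells and macrophages release, differed by 0.16 (adjusted p = 0.621) and 0.16 (adjusted p = 0.478), both chosen after their values were seen. The T cell attractant Ccl5 differed by 0.09 (adjusted p = 0.836), and the signs of Ccl3 and Ccl5 depended on the untreated libraries used. The NK cell receptors Klrb1c and Ncr1 differed by -1.07 (adjusted p = 0.0147) and -0.99 (adjusted p = 0.0176), only Klrb1c passing the fold threshold. The Klrb1c call ended without treated replicate 1 or 3, at values of -1.09 and -0.89. The median over 12 tested NK cell receptors was -0.02, and Klrc2 differed by 0.68 (adjusted p = 0.00972).

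Il7r and Ccr4, receptors of T cells, and the cytokine Il21 were higher than at untreated d10. Il7r, the receptor for the survival cytokine IL-7, was at 30.0, 38.8, 27.3, 33.4 and 23.7 CPM in untreated d10 and at 66.7, 67.4 and 55.3 CPM in treated d14. The groups did not overlap, the difference was 1.05 (SE 0.15, adjusted p = 0.00244), and it also exceeded untreated d14 by 1.41 (adjusted p = 0.00848). The value of Il7r lies close to the fold threshold, and the call ended without treated replicate 2 or untreated replicate 5, at 0.999 and 0.97. Il21, a cytokine of helper T cells, rose by 1.84 (SE 0.42, adjusted p = 0.0125) from between 0.046 and 0.157 CPM to 0.390, 0.432 and 0.259 CPM, very low levels throughout. Without treated replicate 2 its adjusted p was 0.0681. Ccr4, a homing receptor of helper and regulatory T cells, rose by 1.04 (adjusted p = 0.017) from 0.263 to 0.458 CPM in untreated d10 to 0.750, 0.758 and 0.614 CPM. It fell under a threshold in 4 of 8 fits with 1 library left out (treated replicates 1 and 2, untreated replicates 3 and 5), at 0.95 to 0.999. Icos, a costimulatory receptor, differed by 0.84 (adjusted p = 0.0062) and Il2ra, the alpha chain of the IL-2 receptor, by 0.58 (adjusted p = 0.0133), both under the fold threshold and both chosen after their values were seen. Foxp3, the transcription factor that defines regulatory T cells, was at 2.73, 1.56, 2.72, 3.39 and 1.52 CPM in untreated d10 and at 2.32, 3.17 and 3.00 CPM in treated d14, a difference of 0.25 (adjusted p = 0.544). In treated d10 tumors Foxp3 was at 0.225, 0.451 and 0.515 CPM, below all libraries of both groups. Of 13 tested genes of regulatory T cells, Ccr4 was the 1 called, and the median was 0.23. Il4, the helper cytokine, fell by 1.49 (adjusted p = 0.031) at levels under 0.32 CPM, a call that ended in 5 of 8 fits with 1 library left out (treated replicates 1, 2 and 3, untreated replicates 1 and 2), with adjusted p up to 0.133.

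Across the gene lists, the distance of the treated d14 tumors from untreated d10 and from untreated d14 was of different kinds. Lists of T cell receptor, cytotoxic and monocyte genes had medians from 0.03 to 0.12 against untreated d10 and above 1 against untreated d14, while the medians of the cell cycle and interferon lists were below 0 against both. Other myeloid lists did not share this pattern. For the T cell receptor list, the median was 0.03 against untreated d10 and 1.17 against untreated d14, where 16 of 20 genes were called higher and all 20 were higher by adjusted p alone (19.7% of all genes tested there were). For cytotoxic effectors these medians were 0.10 and 1.24, with 11 of 15 called higher against untreated d14. For monocyte and macrophage genes they were 0.12 and 1.17, again with 11 of 16 called higher against untreated d14. With the length offset the monocyte median against untreated d10 was 0.38, and against d10 replicates 4 and 5 alone it was 0.40. The neutrophil list had medians of 0.78 and 1.41, the dendritic cell list 0.43 and 0.60, the macrophage scavenger list -0.31 and 0.54, and the resident peritoneal macrophage list -0.37 and 0.32. Against d10 replicates 4 and 5 alone the resident peritoneal macrophage median was 0.45. For inhibitory receptors the medians were -0.07 (0.16 with the length offset) and 0.66. In that second comparison 1353 of 14451 protein-coding genes were higher (9.36%) and 154 lower (1.07%) in treated d14. Both comparisons use the same 3 treated libraries, so their values are not independent.

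**Figure D2:**
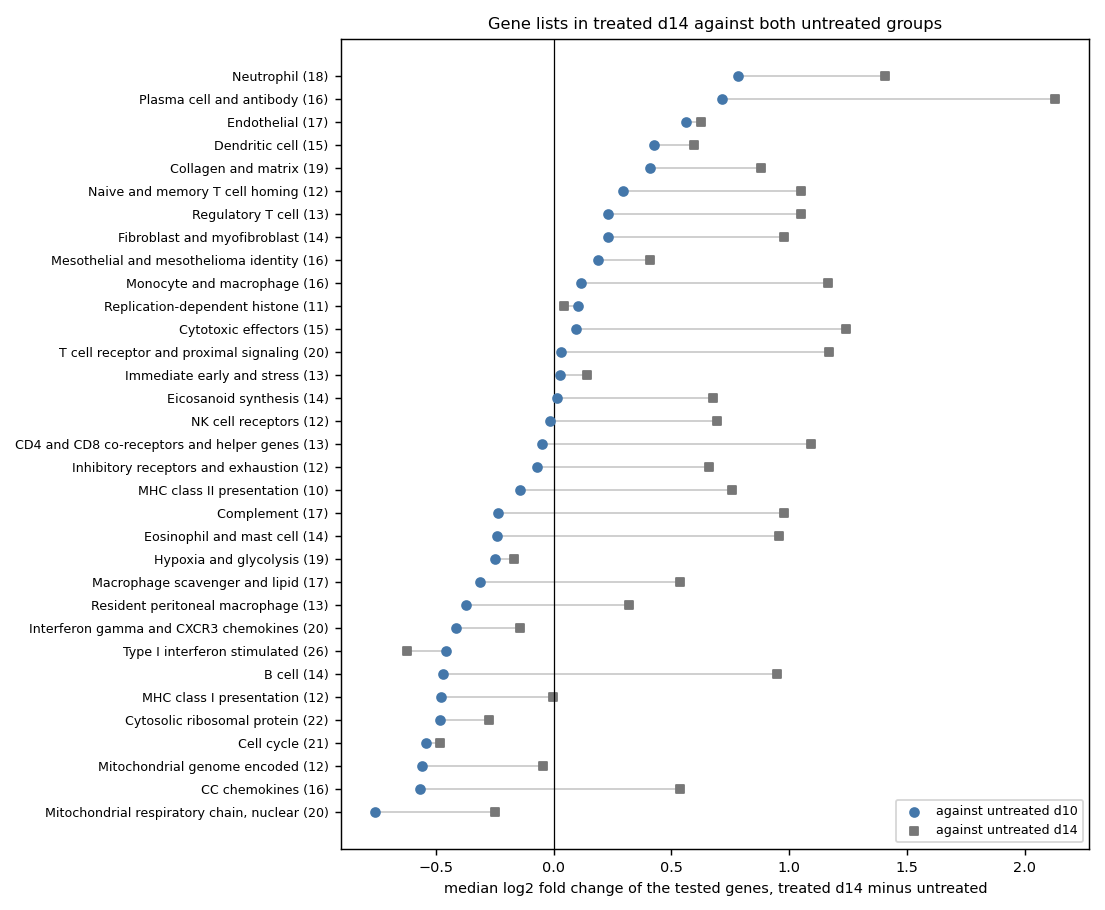
Median log2 fold change (x axis) of the tested genes in 33 gene lists (y axis, with the number of genes tested against untreated d10), for treated d14 minus untreated d10 (circles) and minus untreated d14 (squares). T cell, cytotoxic and monocyte lists sit near 0 against untreated d10 and above 1 against untreated d14, and the cell cycle and type I interferon lists sit below 0 in both.

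Measured over all genes, however, the treated d14 tumors were not nearest to untreated d10. Over 12378 protein-coding genes with a mean of at least 1 CPM, the median absolute difference of log2 CPM (prior count 1) between a treated d14 and an untreated d10 library was 0.303 to 0.438, and between a treated d14 and an untreated d14 library it was 0.199 to 0.378. Over the genes of the T cell receptor list the order was reversed, with 0.087 to 0.456 against untreated d10 libraries and 0.638 to 1.776 against untreated d14 libraries. Treated d14 libraries differed from each other by 0.110 to 0.123 over all genes and by 0.094 to 0.230 over the T cell list. The ranges over all genes against untreated d10 and untreated d14 overlapped, and treated d10 libraries lay at 0.199 to 0.420 from the treated d14 ones. No offset for exon length was applied, so the distances to untreated d10 include the differences that moved with exon length. These are descriptions of pairs of libraries, without a test, and they depend in part on which libraries of a group stand apart.

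Part of the interferon-stimulated genes were lower in treated d14 by adjusted p alone, and 1 was called. None of the 26 tested type I interferon genes had a positive difference, 9 were lower by adjusted p alone (17.3% of all tested genes were), none was called, and the median was -0.46. Usp18, which restrains interferon receptor signaling, differed by -0.93 (adjusted p = 0.00923), and Isg15, a ubiquitin-like modifier induced by interferon, by -0.93 (adjusted p = 0.00299). Against untreated d14 the median of this list was -0.62, and 19 of 26 were lower by adjusted p, as were 15.7% of all genes tested there. Of 20 tested genes of the interferon gamma response, 10 were lower and 2 higher by adjusted p, with a median of -0.42. Cxcl11, a ligand of the chemokine receptor CXCR3, was the 1 called, from 89.7, 92.1, 153, 131 and 108 CPM to 51.5, 47.2 and 60.9 CPM. Its difference was -1.10 (SE 0.19, adjusted p = 0.00461), and -0.95 without untreated replicate 3, which ended the call. The other CXCR3 ligands, Cxcl9 and Cxcl10, differed by -0.60 (adjusted p = 0.0193) and -0.71 (adjusted p = 0.00238). Cd274, which encodes the PD-1 ligand PD-L1, was above untreated d10, by 0.94 (adjusted p = 0.00551), from a mean of 231 to 442 CPM. Among 12 tested genes of antigen presentation by MHC class I, 6 were lower by adjusted p, among them B2m (-0.66, adjusted p = 0.0152) and H2-K1 (-0.78, adjusted p = 0.00767). The median of this list was -0.48, and -0.30 with the length offset. That of the type I interferon list was -0.37 with the offset. Under the alternatives B2m lay between -0.84 and -0.20 and Isg15 between -1.15 and -0.46. Nlrc5, the transactivator of MHC class I genes, was higher by 0.97 (adjusted p = 0.00213).

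Myeloid genes moved in both directions. Among the higher genes were Apoe and Abca1, which carry cholesterol out of macrophages and other cells. Abca1 was at 95.6, 132, 89.0, 70.2 and 82.0 CPM in untreated d10 and at 280, 352 and 268 CPM in treated d14, with no overlap. It rose 3.20-fold (log2 1.68, SE 0.19, adjusted p = 0.00177) and was also above untreated d14 by 1.90. Apoe, at 561, 898, 380, 659 and 435 CPM and then 1551, 1574 and 1137 CPM, rose 2.44-fold (log2 1.29, adjusted p = 0.00675). Apoe was the 1 called gene among 16 of monocytes and macrophages. Csf3r, the G-CSF receptor of neutrophils, rose by 1.16 (adjusted p = 0.00274), from 20.6 to 35.6 CPM in untreated d10 to 64.1, 72.0 and 52.7 CPM. Mmp8, the neutrophil collagenase, rose by 1.33 (adjusted p = 0.0126), though not without treated replicate 1 (1.16, adjusted p = 0.0582). Cxcl3, a neutrophil attractant, rose by 1.31 (adjusted p = 0.00235). Retnlg, a secreted protein of mature neutrophils, went the other way by -1.70 (adjusted p = 0.033), from 8.81 to 39.3 CPM to 8.22, 5.73 and 5.86 CPM. The Retnlg call ended in 5 of 8 fits with 1 library left out (treated replicates 1, 2 and 3, untreated replicates 1 and 2), with adjusted p up to 0.128. S100a8 and S100a9, the subunits of calprotectin, had adjusted p of 0.406 and 0.253, with untreated replicate 1 highest at 50.5 and 75.4 CPM. The list of 18 tested neutrophil genes had a median of 0.78 (1.16 with the length offset) with 2 called higher and 1 lower.

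Some genes of mast cells and resident macrophages were lower, and their levels in untreated d14 tumors also lay below untreated d10, a difference that was not tested here. Mcpt1 and Mcpt2, proteases of mucosal mast cells, differed by -3.04 (adjusted p = 0.00365) and -2.47 (adjusted p = 0.00838). Mcpt1 was at 11.2, 11.2, 8.74, 3.20 and 3.71 CPM in untreated d10, with replicates 4 and 5 lowest, at 0.964, 1.04 and 0.765 CPM in treated d14 and at 3.51, 1.78 and 0.962 CPM in untreated d14. Fcer1a, the IgE receptor subunit of mast cells and basophils, differed by -1.73 (adjusted p = 0.00758) at levels under 0.65 CPM. Of 14 tested genes of eosinophils and mast cells 2 were called, both lower, and the median was -0.24 (0.12 with the length offset). Cd5l, a secreted scavenger protein of tissue macrophages, was at 21.8, 28.2, 22.1, 24.2 and 14.4 CPM in untreated d10 and at 9.10, 4.66 and 7.81 CPM in treated d14, a 3.06-fold lower level (adjusted p = 0.00355). Alox15, the 12/15-lipoxygenase of resident peritoneal macrophages, differed by -1.50 (adjusted p = 0.0291), and the call ended without treated replicate 2 or 3 or untreated replicate 2, at -1.35 to -1.40. Gata6, the transcription factor of these macrophages, differed by 0.07 (adjusted p = 0.835), with a sign that depended on the libraries used. Of 13 tested genes of resident peritoneal macrophages, Cd5l and Alox15 were called, both lower, and the median was -0.37 (-0.15 with the length offset). The sign of this median depended on the untreated libraries used. It was -0.50 against d10 replicates 1 to 3 and 0.45 against replicates 4 and 5. Ocstamp, a membrane protein needed for the fusion of osteoclast precursors, was at 11.0, 13.7, 9.00, 10.9 and 9.34 CPM in untreated d10 and at 1.65, 2.24 and 1.70 CPM in treated d14, a 5.76-fold lower level (adjusted p = 0.00133). In untreated d14 Ocstamp was at 3.00, 1.64 and 2.30 CPM. Mgl2, a lectin of dendritic cells and macrophages, differed by -1.55 (adjusted p = 0.0213), and the call ended without treated replicate 2 or 3, at -1.55 and -1.36. Rnase2a, a ribonuclease of eosinophils and macrophages, differed by -2.16 (adjusted p = 0.0151), and its call ended without the same libraries, at -1.96 and -1.92. Ccr3, the eotaxin receptor of eosinophils, differed by -1.23 (adjusted p = 0.0455) with 5 of 8 fits ending the call (treated replicates 1, 2 and 3, untreated replicates 1 and 2), and with adjusted p up to 0.17. Against d10 replicates 4 and 5 alone the calls of Alox15, Mgl2, Rnase2a and Ccr3 ended. Those of Mcpt1, Mcpt2, Fcer1a, Cd5l and Ocstamp stayed.

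The epithelial genes Tspan8, Nox1, Vnn1, Rbp2, Cdhr5, Cldn2 and Lgr5 were lower in treated d14 than in both untreated groups. Apart from Krt19 and Cdx2, the genes of this paragraph were chosen after their values were seen, Tspan8, Nox1, Vnn1 and Rbp2 because they stayed called under 19 alternatives. Tspan8, a tetraspanin of epithelial and tumor cells, was at 150, 128, 155, 217 and 211 CPM in untreated d10, at 56.9, 53.7 and 75.0 CPM in treated d14 and at 164, 134 and 159 CPM in untreated d14. It was 2.77-fold below untreated d10 (log2 -1.47, SE 0.20, adjusted p = 0.00226) and differed from untreated d14 by -1.24 (adjusted p = 0.00436). Nox1, the NADPH oxidase of colon epithelium, was at 85.2, 71.0, 162, 128 and 140 CPM and then 42.6, 28.7 and 53.9 CPM, a difference of -1.49 (adjusted p = 0.00786). Vnn1, an epithelial pantetheinase, fell by 1.43 (adjusted p = 0.00498), Rbp2, a cellular retinol-binding protein of enterocytes, by 1.54 (adjusted p = 0.00242), and Cdhr5, a cadherin of the brush border, by 1.30 (adjusted p = 0.00548). Against untreated d14 these 3 genes differed by -1.33, -1.84 and -1.11 and Nox1 by -1.33, all called. The Cdhr5 call there ended without treated replicate 1 or untreated d14 replicate 1. Cldn2, a tight junction protein, was at 16.1, 11.4, 23.8, 27.2 and 23.2 CPM in untreated d10 and at 5.70, 6.09 and 9.87 CPM in treated d14. Its difference was -1.49 (adjusted p = 0.00786), and its adjusted p was 0.0505 without treated replicate 2. Lgr5, a receptor that enhances Wnt signaling, differed by -1.04 (adjusted p = 0.0298) with 4 of 8 fits ending the call (treated replicates 1 and 2, untreated replicates 1 and 3), at -0.80 to -1.04. Krt19, a keratin of simple epithelia and mesothelium, was at 672, 631, 708, 891 and 1154 CPM in untreated d10, at 381, 327 and 388 CPM in treated d14 and at 723, 628 and 602 CPM in untreated d14. The difference for Krt19 was -1.15 (adjusted p = 0.00474), and -0.99 without untreated replicate 5, which ended the call. Against untreated d14 it was -0.77 (adjusted p = 0.00487), under the fold threshold. Cdx2, an intestinal homeobox factor, differed by -1.05 (adjusted p = 0.00317), and its call ended without treated replicate 2 (-0.99) or untreated replicate 5 (-0.95). Cldn6, another tight junction protein, differed by -1.38 (adjusted p = 0.00413). Against untreated d14, Cdx2 and Cldn6 differed by -0.35 (adjusted p = 0.0761) and -0.21 (adjusted p = 0.398), and Cldn2 and Lgr5 by -1.66 and -1.34, both called.

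**Figure D3:**
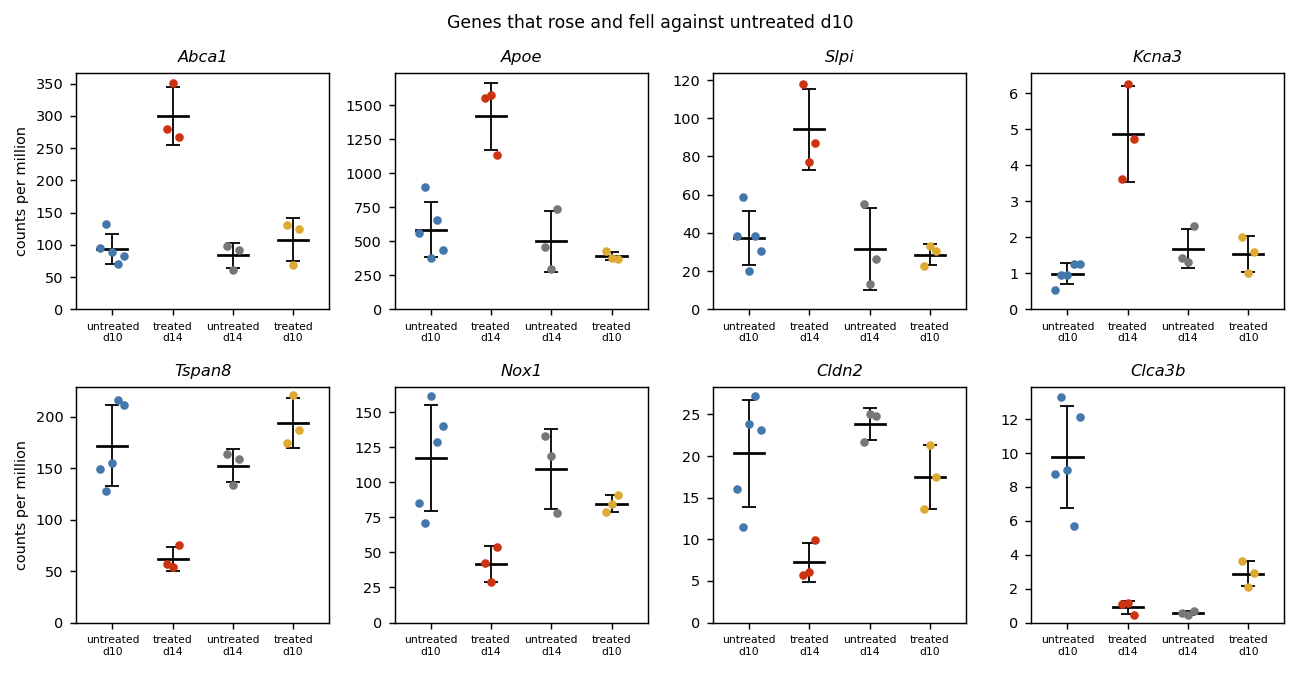
Normalized CPM of 8 genes (y axis, from 0) in each library of 4 groups, with the mean as a bar and the SD as whiskers. Abca1, Apoe, Slpi and Kcna3 of treated d14 lie above all untreated d10 libraries, Tspan8, Nox1 and Cldn2 lie below both untreated groups, and Clca3b lies below untreated d10 at the level of untreated d14.

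Further genes were lower than at untreated d10 without a called difference from untreated d14. Clca3b, a member of the secreted CLCA family of epithelial proteins, was at 8.79, 13.3, 9.00, 5.68 and 12.2 CPM in untreated d10, at 1.11, 1.14 and 0.431 CPM in treated d14, and at 0.570, 0.438 and 0.691 CPM in untreated d14. It was 10.9-fold below untreated d10 (log2 -3.45, SE 0.40, adjusted p = 0.0018). Il1f6, an epithelial cytokine now called IL-36 alpha, was 9.12-fold below it (adjusted p = 0.00171). For both genes treated d10 libraries lay between, at 2.12 to 3.62 CPM for Clca3b and 1.05 to 1.58 CPM for Il1f6. Stra6, the membrane receptor for retinol-binding protein, fell by 1.68 (adjusted p = 0.00207), from 20.9, 17.5, 30.1, 28.4 and 25.8 CPM to 8.19, 5.72 and 9.02 CPM, with untreated d14 at 12.2, 8.38 and 5.62 CPM. Cyp26a1, which degrades retinoic acid, and Crabp1, which binds it, both chosen after their values were seen, differed by -1.92 (adjusted p = 0.0233) and -2.09 (adjusted p = 0.0144). Both are expressed below 1.3 CPM, and both calls ended without treated replicate 2, that of Cyp26a1 also without replicate 3 and that of Crabp1 also without replicate 1, with adjusted p up to 0.1. Fbp2, the muscle isoform of fructose bisphosphatase, fell by 1.92 (adjusted p = 0.00552), and Penk, the enkephalin precursor, by 1.49 (adjusted p = 0.00631). Fbp2 in treated d14 also lay below untreated d14, by -0.96 (adjusted p = 0.0103), under the fold threshold. Igfbp2, which binds insulin-like growth factors, differed by -2.24 (adjusted p = 0.0327). Igfbp2 was highest in untreated replicate 4 (8.95 CPM against 1.12 to 3.00 CPM in the other 4), and its call ended without any of the treated replicates, at -2.17 to -2.33. Cfd, adipsin of fat tissue, differed by -1.91 (adjusted p = 0.012), and by -1.79 without treated replicate 3, where its adjusted p was 0.0536. Against untreated d14 Cfd differed by 1.13 (adjusted p = 0.203). The summed level of 12 adipocyte genes was 49.4 to 101 CPM in untreated d10 and 37.0 to 63.1 CPM in treated d14, and its part in the Cfd difference was not tested. Among genes of other tissues and of chromatin, H1fx, a linker histone chosen after its values were seen, fell by 1.56 (adjusted p = 0.00207) and differed from untreated d14 by -0.83 (adjusted p = 0.013). Ckm of muscle (-1.68, adjusted p = 0.00881), Gc of liver (-1.05, adjusted p = 0.0471) and the histone gene Hist1h2ae (-2.27, adjusted p = 0.0248) had levels below 2.5 CPM. Gc differed from untreated d14 by -1.23 (adjusted p = 0.153), and Crabp1, Ckm and Hist1h2ae were not tested there. The calls of Gc and Hist1h2ae ended in 7 and 3 of 8 fits with 1 library left out, for Gc all but that without untreated replicate 4 and for Hist1h2ae those without a treated replicate, with adjusted p up to 0.185 and 0.109.

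Of 21 tested genes of the cell cycle, 11 were lower in treated d14 than in untreated d10 by adjusted p alone and none was higher, where 17.3% of all tested genes were lower. Against untreated d14, 16 were lower by adjusted p, where 15.7% of all tested genes were. The median was -0.54 against untreated d10 and -0.48 against untreated d14. Plk1, the mitotic kinase, was at 107, 88.8, 78.1, 109 and 116 CPM in untreated d10, at 44.8, 51.9 and 50.9 CPM in treated d14 and at 83.0, 62.3 and 79.5 CPM in untreated d14. It was the 1 called member (-1.02, SE 0.14, adjusted p = 0.00233), a value close to the threshold that ended under it in 4 of 8 fits with 1 library left out (treated replicate 1, untreated replicates 1, 4 and 5), at -0.95 to -0.99. The mitotic cyclins Ccnb2 and Ccna2 differed by -0.98 (adjusted p = 0.00171) and -0.81 (adjusted p = 0.00177). Birc5, which encodes the mitotic protein survivin, differed by -0.99 (adjusted p = 0.00193). Mki67, the proliferation marker with the longest transcript of these, differed by 0.17 (adjusted p = 0.532), and by -0.01 with the length offset. With an offset for exon length the list median was -0.40.

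Mesothelial genes moved in both directions, and 6 matrix genes were higher by adjusted p without being called. Muc16, the mucin known as CA-125, was at 0.273, 0.312, 0.190, 0.639 and 0.247 CPM in untreated d10 and at 2.43, 2.84 and 1.29 CPM in treated d14, a 6.50-fold higher level (log2 2.70, SE 0.39, adjusted p = 0.00253). In untreated d14 Muc16 was at 0.285, 0.219 and 3.00 CPM, so 1 of those libraries was as high as the treated ones. Lrrn4, a leucine-rich repeat protein of mesothelium, rose by 1.40 (adjusted p = 0.0216), from 9.30, 15.6, 7.35, 10.6 and 4.30 CPM to 34.2, 25.3 and 14.6 CPM. The libraries of Lrrn4 overlapped, and the call ended without treated replicate 1 or 2, at 1.09 and 1.38. Gpm6a, a membrane glycoprotein also used as a mesothelial marker, differed by 1.21 (adjusted p = 0.0404) and lost its call in 5 of 8 such fits (treated replicates 1 and 2, untreated replicates 1, 3 and 5), with adjusted p up to 0.231. Of 16 tested genes in the mesothelial list, which mesothelioma cells share, Muc16, Lrrn4 and Gpm6a were called higher and Krt19 lower. By adjusted p alone 3 were higher and 4 lower, the list median was 0.19, and the summed level of the list was 7583 to 10740 CPM in untreated d10 and 5135 to 5669 CPM in treated d14. Msln, which encodes mesothelin, had means of 369 and 374 CPM and differed by 0.03 (adjusted p = 0.949), with a sign that depended on the libraries used, and Wt1, the mesothelial transcription factor, by 0.61 (adjusted p = 0.0722). None of 19 tested collagen and matrix genes was called, but 6 were higher by adjusted p, as were 11.4% of all tested genes. Among the 6 were Fn1, fibronectin (0.83, adjusted p = 0.00905), Tnc, tenascin C (0.93, adjusted p = 0.0214) and Col4a1 of basement membranes (0.86, adjusted p = 0.023). The median was 0.41, and 0.23 with the length offset. Kdr, the main VEGF receptor of endothelium, differed by 1.02 (adjusted p = 0.0384), and its call ended in 7 of 8 fits with 1 library left out, that without untreated replicate 4 being the exception, with adjusted p up to 0.121. Among 17 tested endothelial genes Kdr was the 1 called, and the median was 0.56.

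Kcna3, Slpi, Epas1, Il18r1, Wnk2 and Col13a1 were higher in treated d14 than in both untreated groups. Kcna3, a potassium channel of effector memory T cells and other leukocytes, was at 0.529, 0.952, 0.950, 1.25 and 1.27 CPM in untreated d10 and at 3.63, 6.27 and 4.72 CPM in treated d14, a 4.93-fold higher level (adjusted p = 0.0019), and it was above untreated d14 by 1.59 (adjusted p = 0.00887). Slpi, a secreted inhibitor of neutrophil elastase, was at 38.3, 58.9, 20.1, 38.1 and 30.6 CPM and then 118, 77.1 and 87.2 CPM, a 2.54-fold higher level (adjusted p = 0.00852). Epas1, the hypoxia-inducible factor 2 alpha, rose by 1.29 (adjusted p = 0.00204), from 15.2 to 23.6 CPM to 40.8, 56.7 and 46.5 CPM, and Il18r1, the IL-18 receptor, rose by 1.20 (adjusted p = 0.00277). Wnk2, a kinase that regulates ion transport, rose by 1.60 (adjusted p = 0.0083), and Col13a1, a transmembrane collagen, by 1.57 (adjusted p = 0.00302). Against untreated d14, Slpi, Epas1, Il18r1, Wnk2 and Col13a1 were called as well, with differences from 1.11 to 2.42. The Il18r1 call there ended without treated replicate 1, 2 or 3 or untreated d14 replicate 1 or 2. The Slpi call there ended without treated replicate 1, 2 or 3 or untreated d14 replicate 3. Tspoap1, a synaptic scaffold protein, rose by 2.25, Col20a1, a fibril-associated collagen, by 2.12, and Sned1, an extracellular matrix protein, by 1.87, with adjusted p of 0.00504, 0.00364 and 0.00296. Ttll3, Pkhd1l1, Adamtsl1, Stard9 and Cdh23 rose by 1.66 to 1.83. Of these 8 genes, Sned1 and Adamtsl1 were also called higher than untreated d14, by 1.34 and 1.33. Pkhd1l1 differed from untreated d14 by 1.24 (adjusted p = 0.122), Cdh23 by 0.90 (adjusted p = 0.0102), Col20a1 by 0.87 (adjusted p = 0.0467), Tspoap1 by 0.70 (adjusted p = 0.0674), Stard9 by 0.62 (adjusted p = 0.0659) and Ttll3 by 0.35 (adjusted p = 0.316). All 8 had means in untreated d14 above every untreated d10 library. The genes of this paragraph were chosen after their values were seen. Of the 470 higher genes, 467 were also tested against untreated d14, where 213 were again higher and 1 was lower. Of all protein-coding genes tested against untreated d14, 9.36% were called higher and 1.07% lower. Of the 233 lower genes, 211 were tested there, 41 were again lower and 2 were higher, the treated libraries being the same in both comparisons.

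Differences from untreated d10 moved with the length of a gene's exons. The median was -0.51 in 378 genes of up to 1000 bases, -0.39 in 1669 genes of 1001 to 2000 bases, -0.19 in 4471 genes of 2001 to 4000 bases, 0.00 in 5445 genes of 4001 to 8000 bases and 0.21 in 2537 longer genes. In the shortest genes 11.6% were called lower, and in the longest 0.355%, where 1.61% of all tested genes were. Against untreated d14 the medians of the same groups lay between -0.04 and 0.02. Against both parts of the untreated d10 libraries the gradient was present, from -0.48 to 0.24 with replicates 1 to 3 and from -0.40 to 0.23 with replicates 4 and 5. Short transcripts of basic cell functions followed the same direction. Of 20 tested nuclear genes of the mitochondrial respiratory chain, with a median exon length of 1466 bases, 18 were lower by adjusted p. Of all tested genes 17.3% were. The list median was -0.76. With an offset for exon length it was -0.42, and none of the 3 called members, Ndufb9, Ndufa1 and Ndufs6, remained called. Among 22 cytosolic ribosomal proteins 11 were lower by adjusted p, beside the same 17.3% of all tested genes, and none was called. Their median was -0.48, and -0.28 with the offset. Rplp2, another ribosomal protein, was at 951, 982, 792, 512 and 655 CPM in untreated d10 and at 250, 258 and 265 CPM in treated d14, a 3.02-fold lower level (adjusted p = 0.00226). Rpl24 differed by -2.66 (adjusted p = 0.0266), but its untreated d10 levels were 14.1 to 16.3 CPM in replicates 1 to 3 and 2.09 and 2.60 CPM in replicates 4 and 5, near the treated levels of 1.65, 2.03 and 1.10 CPM. Its call ended without any of the treated replicates or untreated replicate 1, at -2.45 to -2.87. Ribosomal proteins have many processed pseudogenes, so their uniquely mapped counts are uncertain. The part of exon length in these differences was measured here with the offset and was not otherwise tested.

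**Figure D4:**
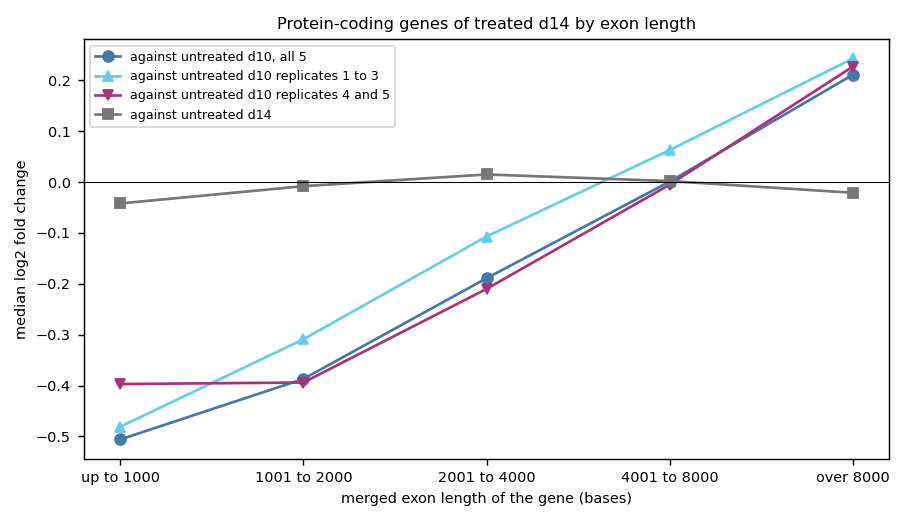
Median log2 fold change of treated d14 protein-coding genes (y axis) in 5 classes of merged exon length (x axis, bases), against all untreated d10 libraries, each part of them, and untreated d14. The lines against untreated d10 rise from about -0.5 to 0.2, and the line against untreated d14 stays near 0.

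The genes with the highest fold changes of all were those of the exocrine pancreas, mostly digestive enzymes, and they came from a pair of libraries. Counts on 16 genes of pancreatic acinar cells made up 0.557% of all counts in treated d14 replicate 1 and 0.186% in replicate 3. In replicate 2 they made up 0.000540%, and in the other 14 libraries of the series at most 0.000244%. Ctrb1, chymotrypsinogen B, was at 1673, 0.737 and 578 CPM in treated d14 replicates 1 to 3 and had no count in any untreated d10 library. Against a floor of 3 counts per library its mean in treated d14 was at least 15790-fold higher. By the same rule Pnliprp1, a pancreatic lipase-related protein, was at least 4547-fold higher, Reg3b, an antibacterial lectin, at least 2799-fold, and Cpa1, carboxypeptidase A, at least 2761-fold. All 8 acinar genes that could be tested were called higher. Among called genes whose groups did not overlap and that reached a mean of 2 CPM in either group, the 12 largest increases were Ctrb1, Pnliprp1, Reg3b, Cpa1, Cel, Cpb1, Reg2, Dmbt1, Rnase1, Ctrl, Pdia2 and Cela1, and each had its highest levels in replicates 1 and 3. Cela1, an elastase, was at 158, 2.43 and 50.2 CPM in treated d14 and at 1.01 to 2.31 CPM in untreated d10. Klk1, tissue kallikrein, followed the same libraries at 82.3, 2.28 and 27.5 CPM, and so did the trypsinogen Prss2 at 290, 0.105 and 96.8 CPM, whose groups overlapped. With treated replicate 2 alone against untreated d10 the treated group holds 1 library, so only effect sizes are read from that fit. In that library the list medians were 0.17 for the T cell receptor genes, -0.59 for type I interferon, -0.54 for the cell cycle and -0.76 for the respiratory chain, so these medians kept their sign in the library with little pancreatic RNA.

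**Figure D5:**
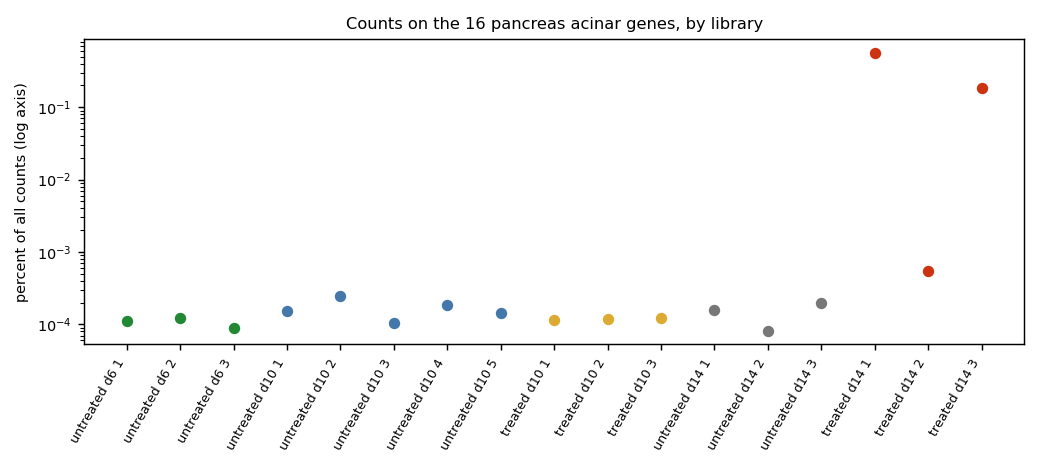
Share of all counts on 16 pancreas acinar genes (y axis, percent, log axis) in each of the 17 libraries (x axis). Treated d14 replicates 1 and 3, at 0.557% and 0.186%, stand far above the other 15 libraries.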

How the data were processed

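RNA was measured in 17 libraries, one per tumor, of which 8 enter the main comparison and 3 more, untreated d14, the side comparison. Per the labels, RNA was extracted with TRIzol and Direct-zol, and the KAPA RNA HyperPrep kit was used for libraries. According to the study's methods and the submitters' processing notes, reads were aligned to GRCm38 with TopHat2 2.0.14, and uniquely mapped reads were counted with HTSeq on Gencode vM21. The deposited values are these raw counts per gene for 55450 genes, without normalization by the authors. Libraries ran on either of 2 sequencers, and which library ran on which, and whether counting used strand, are not given in the sources used here. Genes that overlap on opposite strands are therefore uncertain.

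Counts were tested in R 4.3.3 with edgeR 4.0.16 (filterByExpr, TMM, quasi-likelihood test), all genes entering the fit and the Benjamini-Hochberg adjustment, with only the groups compared. Libraries came from different mice, so p-values measure the spread between these tumors. The study's methods also describe the removal of genes that separated a sequencing project from the others. That filter was not applied here, and since the project of each library is not given in the sources used here, its part in any difference cannot be told apart from that of the groups. Depth was 51159050 to 96759833 counts in the 11 libraries used. No replicates agreed within sampling noise. Exon length is the merged exon length of Gencode vM21. Alternatives were DESeq2 1.42.0, library size without TMM, other filters, protein-coding genes only, all 5 groups in one fit, thinning, each replicate left out, a replicate block and parts of the untreated d10 libraries. An offset for exon length and treated replicate 2 alone were added after seeing the data. Figures were drawn with matplotlib 3.10.9.

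The gene lists (45), the comparison and the naming rule were chosen with earlier results of these data known. The rule names 11 genes of T cells, cytotoxicity and checkpoints, the 12 largest non-overlapping calls per direction with at least 2 CPM, and the called genes of each list (all up to 5, otherwise the 4 with the smallest p). Genes that stayed called under 19 alternatives, up to 15 per direction, and other named genes were chosen after their values were seen. Some genes that these choices name are not reported here.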

Additional observations from a re-analysis of the deposited data

Results flagged for a closer look

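Only untreated d10, with 5 libraries, was large enough to be examined for a library far from the others, by Dixon's ratio at its 95% critical value. Among 142 genes 11 had such a library, and chance alone gives about 1 in 20. Igfbp2 was at 8.95 CPM in untreated d10 replicate 4 and at 1.12 to 3.00 CPM in the other replicates. In the same replicate Muc16 was at 0.639 CPM, against 0.190 to 0.312 CPM, and Penk at 21.1 CPM, against 8.22 to 11.9 CPM. Tspoap1 was at 2.64 CPM in replicate 3 and at 0.724 to 1.20 CPM in the others. Pkhd1l1 was the low case, at 2.92 CPM in replicate 5 against 4.47 to 4.75 CPM. Ccl3 and Ccl4 were highest in replicate 2, at 61.3 CPM against 31.6 to 38.1 CPM and at 40.8 CPM against at most 28.9 CPM in the others. S100a8 and S100a9 were highest in replicate 1, at 50.5 CPM against 9.90 to 16.4 CPM and at 75.4 CPM against 17.2 to 25.2 CPM. The pancreatic genes Cel, at 0.0121 CPM in replicate 4, and Reg1, at 0.0309 CPM in replicate 5, were at 0 in the other replicates, which at these counts is no more than 1 or 2 reads.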

How the results depend on the processing

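The main count of 703 calls moved by more than 1.5 times under 6 alternatives. It became 1087 against untreated d10 replicates 1 to 3, 1138 against replicates 4 and 5, 0 with treated replicate 2 alone, and 1120 with the replicate number as a block. The deviations of same-numbered libraries correlated at 0.05, 0.086 and 0.047, and 2 of the 3 treated libraries correlated best with their own number. So few libraries cannot decide whether the numbers pair the tumors. In the block fit, untreated replicates 4 and 5 have no treated library of their number, so its difference rests on replicates 1 to 3. The cause of these shifts was not tested, and these fits also differ in the libraries they use. Leaving out 1 library gave 364 to 904 calls, with shifts of that size without treated replicate 1 (436) or 2 (364), and 921 to 2036 against 1507 for untreated d14, which was 0 with treated replicate 2 alone. Other counts stayed within 1.5 times, from 530 (at least 10 counts in every library) to 876 (DESeq2), with 599 under the length offset.

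Genes with differences near 0 changed sign. Pdcd1 went to 0.14 without TMM, 0.01 with all genes of at least 1 count, 0.023 with at least 10 counts in every library, 0.067 with protein-coding genes only, 0.029 with all 5 groups, 0.31 with the replicate block, 0.28 with the length offset, 0.064 with treated replicate 2 alone and 0.29 against d10 replicates 1 to 3, and it lay between -0.131 and 0.108 with 1 library left out. Lag3 went to 0.016, 0.18, 0.12, 0.021 and 0.16 without TMM, with the block, with the offset, with treated replicate 2 alone and against d10 replicates 1 to 3. Cd3d went to 0.063 with the offset, Cd3e to 0.074 without TMM, 0.0011 with protein-coding genes only and 1e-04 with the offset, and Ifng to 0.35 against d10 replicates 4 and 5. Against d10 replicates 1 to 3, Ccl3 went to -0.031, Ccl5 to -0.16 and Gata6 to -0.14. With the block Ccl5 went to -0.13 and Gata6 to -0.16, and with the offset Gata6 went to -0.0058 and Mki67 to -0.013. Msln went to -0.078 with treated replicate 2 alone and to -0.41 against d10 replicates 4 and 5. With 1 library left out Ccl5 lay between -0.10 and 0.32, Gata6 between -0.11 and 0.22 and Msln between -0.11 and 0.19. Dmbt1 against untreated d14 went to -0.58 with treated replicate 2 alone. No other named gene changed sign against untreated d10, nor did any other called gene or gene of the T cell and checkpoint set against untreated d14, and 285 of the 2847 values of named genes under alternatives lost their call against untreated d10.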
